A study of Mus musculus with 4 samples.

Results

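Type 1 conventional dendritic cells (cDC1) were picked from droplet single-cell RNA libraries of liver by the transcripts of a few genes. A member held at least 1 UMI (unique molecular identifier, a count of 1 captured RNA molecule) of Xcr1 or Clec9a and at least 1 of Flt3, Batf3, Naaa or Cst3. It held 0 UMIs of Cd209a, Fscn1, Siglech, Cd79a and Cd3e. The rule found 20 cells in KO 1, 6 in KO 2, 59 in Control 1 and 35 in Control 2, which makes 120 of 24030 kept cells. Kept cells had at least 250 detected genes and at most 25% of their UMIs from mitochondrially encoded genes. The 2 KO libraries came from mice whose genotype label is Cyr61 KO and the 2 Control libraries from mice labelled Control. Every library came from male mice of the strain Cyr61fl/fl at 24 weeks of age, after 12 weeks on a NASH diet (a diet used to bring on steatohepatitis). The labels name neither the Cre driver nor the number of mice behind a library, so p-values below measure the spread between libraries. The tissue had been kept in serum with DMSO, thawed, digested and passed over a column against dead cells before loading.

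cDC1 are a scarce subset of dendritic cells specialised in taking up dead cells and showing their antigens on MHC class I to CD8 T cells, which is called cross-presentation. They arise from Flt3-dependent precursors under the transcription factors Irf8, Batf3 and Id2. CLEC9A binds actin filaments exposed by dead cells, and XCR1 is the receptor for XCL1, a chemokine made by natural killer (NK) and activated CD8 T cells. The closest relatives in liver are cDC2, the Ccr7-positive migratory (activated) dendritic cells, and plasmacytoid dendritic cells (pDC).

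The genes that chose the members lie on several mouse chromosomes (GRCm38, GENCODE M21). Xcr1 spans chr9:123852315-123862029 on the minus strand and Clec9a chr6:129408862-129424763 on the plus strand. Batf3, a leucine zipper factor that pairs with Irf8, spans chr1:191097847-191108945 on the plus strand, and Naaa, an enzyme that cleaves fatty acid ethanolamides, chr5:92257659-92278170 on the minus strand. The promoters of both defining receptors are shown because their transcripts set membership, and that of Ifi205, an interferon-inducible gene of the HIN-200 family, because it was the 1 window with a motif match among 15 windows of 13 genes searched for 4 motifs, and so was chosen after the search. The RefSeq windows (GRCm38.p6) cover chr9:123861980-123862279 on the minus strand for Xcr1, chr6:129408612-129408911 on the plus strand for Clec9a and chr1:174031706-174032005 on the minus strand for Ifi205. Capitals mark matches to the interferon regulatory factor (IRF) motif, which is GAAA, any 2 bases and GAAA again, on either strand.
Xcr1: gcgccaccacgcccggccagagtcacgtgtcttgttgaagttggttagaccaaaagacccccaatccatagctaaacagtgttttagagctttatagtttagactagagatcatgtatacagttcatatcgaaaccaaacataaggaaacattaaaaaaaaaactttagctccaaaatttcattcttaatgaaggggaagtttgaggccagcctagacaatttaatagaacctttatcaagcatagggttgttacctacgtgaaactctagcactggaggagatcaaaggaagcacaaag
Clec9a: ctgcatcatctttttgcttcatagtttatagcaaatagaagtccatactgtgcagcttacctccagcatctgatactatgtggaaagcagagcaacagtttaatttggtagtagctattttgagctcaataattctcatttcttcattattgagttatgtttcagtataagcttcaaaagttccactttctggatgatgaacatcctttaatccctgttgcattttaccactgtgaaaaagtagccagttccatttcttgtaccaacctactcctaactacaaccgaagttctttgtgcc
Ifi205: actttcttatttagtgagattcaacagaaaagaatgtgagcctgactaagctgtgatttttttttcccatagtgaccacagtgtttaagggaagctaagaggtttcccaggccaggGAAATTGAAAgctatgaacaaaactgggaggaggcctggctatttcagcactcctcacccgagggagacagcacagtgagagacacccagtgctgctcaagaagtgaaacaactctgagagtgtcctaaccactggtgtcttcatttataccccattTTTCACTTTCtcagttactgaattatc
The IRF motif was present in 3.44% of 32851 mouse promoter windows of the same length. The Ifi205 window held 2 matches, at positions 117 to 126 and 274 to 283 counted from its 5′ end. The Xcr1 and Clec9a windows held none of it, nor of the AP-1 motif TGANTCA, which was in 7.81% of the windows. The other motifs searched, on both strands, were GGAA, any 2 bases and GAAA (ETS-IRF, in 2.72% of the windows) and TTTC, any 4 bases and TGANTCA (AICE, in 0.119%), which overlap IRF and AP-1 in their letters. The windows of Batf3, Naaa, Flt3, Cst3, Irf8, Wdfy4, Tlr3, Ppt1, Id2 and Snx22 held none of the 4. A match is a description of letters and not a bound site.

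The libraries held 17187561 UMIs in KO 1, 17925516 in KO 2, 8290677 in Control 1 and 20537236 in Control 2, over 4852 to 7253 barcodes. The median cDC1 had 1710 UMIs in KO 1, 3863.5 in KO 2, 1680 in Control 1 and 2012 in Control 2. In KO 2 a single cell held 50.4% of the members' UMIs and in Control 2 another held 21.1%, against 14.1% in KO 1 and 7.10% in Control 1. Cyr61, listed under its newer symbol Ccn1 and coding for a secreted matrix protein, had 0 UMIs in KO 1 and 12 in KO 2, against 183 in Control 1 and 146 in Control 2 over all kept cells. No cDC1 of any library had a UMI of it, and the labels do not say which part of the gene was deleted. Any pair of libraries shared 6 to 22 barcodes.

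The gate rested on few molecules. Of 206 kept cells with a UMI of Xcr1 or Clec9a, 186 also had a gene of the second panel, and 66 of these were set aside for a UMI of an excluded gene. The excluded genes mark cDC2 (Cd209a), migratory dendritic cells (Fscn1), pDC (Siglech), B cells (Cd79a) and T cells (Cd3e). Among members, 33 had Xcr1 only, 70 Clec9a only and 17 both, and 77 were admitted by exactly 1 UMI. Naaa was seen in 71 members, Batf3 in 44, Flt3, the receptor for the dendritic cell growth factor FLT3L, in 48, and Cst3, a cysteine protease inhibitor abundant in dendritic cells, in 114. A group of 25 members had Cst3 as the only gene of the second panel, and Cst3 was also found in 27.2% of 8214 Cd3e-positive T cells. In those T cells Xcr1 was found in 0.207% and Clec9a in 0.134%, and in 6767 Cd79a-positive B cells in 0.118% and 0.0296%.

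Just inside and just outside the rule, the levels were as follows. Levels are given as CPM, the UMIs of a gene scaled to 1000000 UMIs summed over the cells named. The 77 members with 1 UMI had 1046 CPM of Irf8 and 361 CPM of Wdfy4, and the 43 with 2 or more had 1259 CPM and 413 CPM. The 15 cells outside with exactly 1 UMI of an excluded gene had 1022 CPM of Irf8 and 227 CPM of Wdfy4. The 95 cells with Naaa and Batf3 but no Xcr1 or Clec9a UMI had 349.9 CPM of Irf8 and 80.6 CPM of Wdfy4, well under both groups of members.

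Among genes the rule did not use, Irf8 and Wdfy4 were seen more often in members than in B or T cells. Of 30 other genes known from cDC1, 29 had a UMI among the members, and 19 were found in at least 10% of the 94 Control cells. These counts alone do not set cDC1 apart. Of 24 cDC2 genes 21 had a UMI among the members, and 8 were found in at least 10% of the Control cells. The share over all genes was not computed. Irf8, the factor on which cDC1 development depends, was seen in 69.2% of KO and 74.5% of Control members, against 35.9% of B cells and 7.48% of T cells. Id2, a repressor of other lineage factors, was seen in 68.1% of Control members, and Ppt1, a lysosomal thioesterase active in cross-presentation, in 63.8%. Wdfy4, a protein needed to cross-present cell-bound antigen, was seen in 54.3% of Control members, against 19.9% of B cells and 1.96% of T cells. Tlr3, the sensor of double-stranded RNA, was seen in 26.6% and the adhesion molecule Cadm1 in 21.3% of them. Itgae, which codes for CD103 and marks cDC1 of many tissues, reached 9.57% of Control members, and Cd207 had no UMI in any member.

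Transcripts of other cell types were scarce but present. Over the 4 libraries the T cell list (Cd3d, Cd3g, Trac, Trbc2, Lck) summed to 0 to 206.7 CPM. The pDC list summed to 211 to 476 CPM, with Klk1, Pacsin1 and Cox6a2 at 0 in every library. In the NK cell list Ncr1 and Klrb1c were at 0, but Klrk1 was seen in 0 of 26 KO and 13 of 94 Control members. In the neutrophil list Mmp9 and Cxcr2 were at 0, but S100a8 and S100a9 were each seen in 0 of 26 KO and 15 of 94 Control members. Such counts pool the cells of 2 libraries per group, and cells are not replicates of a group. As a limit of counting alone, 0 of 26 allows a share of up to 11.5%. Ighm of B cells was seen in 8 of 26 KO (30.8%) and 20 of 94 Control (21.3%) members, and Cd5l and Vsig4 of Kupffer cells were at 0. A total of 35 members (29.2%) held 2 or more UMIs over the T, B, NK, neutrophil, hepatocyte and mesothelial or fibroblast lists. A group of 14 members (11.7%) had fewer than 5 UMIs over Cd74, H2-Aa, H2-Ab1 and H2-Eb1.

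cDC1 made up a smaller share of the kept cells in both KO libraries than in either Control library, but 2 libraries against 2 cannot reach significance. The share was 0.279% in KO 1 (exact binomial 95% interval 0.171 to 0.431) and 0.118% in KO 2 (0.0435 to 0.258). It was 1.25% in Control 1 (0.953 to 1.61) and 0.494% in Control 2 (0.344 to 0.686). The groups did not overlap, although the intervals of KO 1 and Control 2 did, and the Control libraries differed from each other by more than KO 1 did from Control 2. The mean was 0.199 ± 0.114% in KO and 0.872 ± 0.535% in Control (SD, n = 2 each), a Control mean 4.38 times that of KO (log2 KO over Control -2.13). The exact two-sided permutation test over libraries gave p = 0.333, the smallest p that this design allows. Intervals cover counting error only.

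The mean share stayed below that of Control when depth and the gate were changed, and its size moved. After each cell was thinned to 1000 UMIs, with shallower cells left out (1574 in KO 1, 537 in KO 2, 1807 in Control 1 and 1526 in Control 2), the shares were 0.215% and 0.0442% in KO against 0.687% and 0.341% in Control. With 2 UMIs of Xcr1 or Clec9a required, KO 1 (0.168%) lay above Control 2 (0.155%), so that the groups overlapped, and KO 2 had 1 cell (0.0197%) against 0.403% in Control 1. Without Control 1 the log2 ratio was -1.31, and without KO 1 it was -2.88.

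The KO libraries also lay below the Control libraries for cDC2 and pDC, but not for migratory dendritic cells. cDC2 made up 0.307% and 0.395% of kept cells in KO 1 and KO 2, against 1.87% and 0.931% in Control 1 and Control 2, a Control mean 3.98 times that of KO (exact permutation p = 0.333). pDC made up 0.0978% and 0.217% in KO, against 0.742% and 0.367% in Control, a Control mean 3.52 times that of KO with the same p. Migratory cells made up 0.0559% in KO 1 and 0.237% in KO 2, against 0.339% in Control 1 and 0.0987% in Control 2, with overlapping groups (exact permutation p = 0.667). Within gated cDC1, cDC2 and migratory cells together, cDC1 were 43.5% (20 of 46) in KO 1 and 15.8% (6 of 38) in KO 2, against 36.2% (59 of 163) in Control 1 and 32.4% (35 of 108) in Control 2. The KO libraries lay on both sides of the Control libraries, with means of 29.6 ± 19.6% and 34.3 ± 2.68% (exact permutation p = 1.0, SD, n = 2 each). Leaving out KO 2 turned this ratio from a log2 of -0.21 to 0.34.

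**Figure D1:**
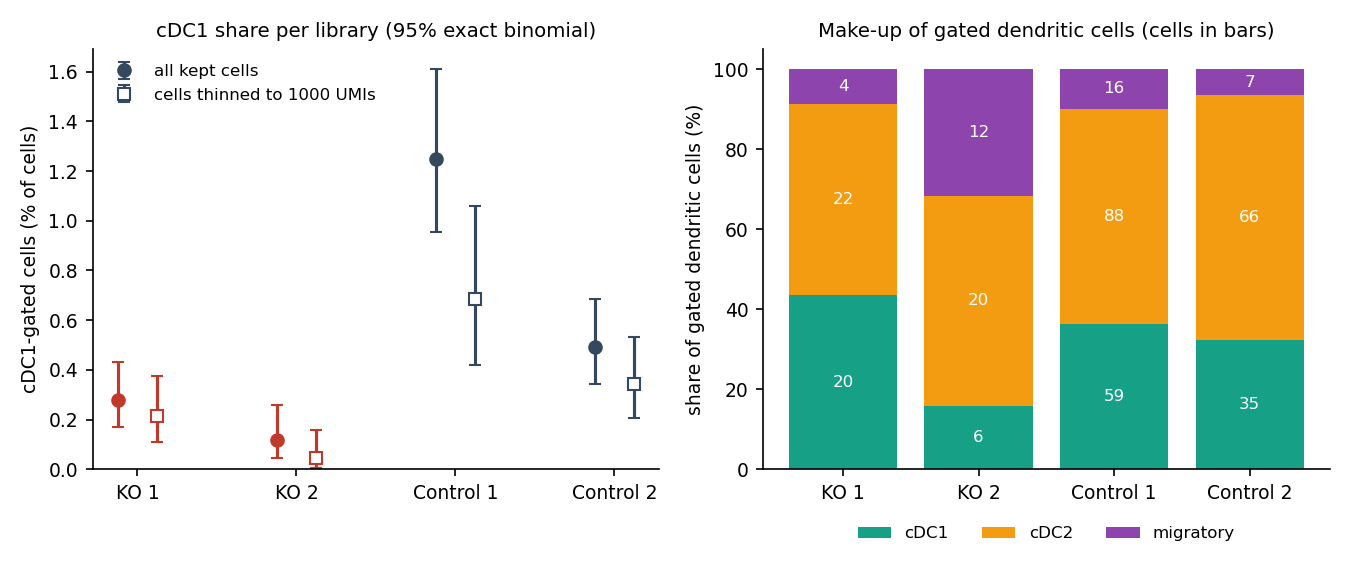
Left, cDC1 as a percentage of cells in each library, for all kept cells (filled circles) and for cells thinned to 1000 UMIs (open squares), with exact binomial 95% intervals. Right, the cDC1, cDC2 and migratory shares of gated dendritic cells, with cell numbers in the bars; cDC1 range over 0.118 to 0.279% of kept cells in KO and 0.494 to 1.25% in Control.

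The nuclear RNA Malat1 varied widely between members and libraries. Its median share of a cell's UMIs was 13.6% in KO 1, 3.796% in KO 2, 6.89% in Control 1 and 2.07% in Control 2. In cDC1 it was over 5% in 16 of 20 cells of KO 1, 3 of 6 of KO 2, 31 of 59 of Control 1 and 11 of 35 of Control 2. In cDC2 the same was true of 6 of 22, 2 of 20, 21 of 88 and 3 of 66 cells. The trait was not particular to cDC1. In migratory cells it held for 3 of 4, 7 of 12, 9 of 16 and 5 of 7, in the same order of libraries. In pDC it held for 2 of 7, 4 of 11, 12 of 35 and 7 of 26. Members above 5% were shallower, with a median of 1327.5 against 3815.5 UMIs in KO 1 and 1044 against 3516 UMIs in Control 1. A high Malat1 share is widely used as a sign of nuclei or of cells that have lost cytoplasmic RNA.

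Summed over libraries, the 61 members above 5% had 6960 CPM of Actb, the cytoskeletal actin, against 26721 CPM in the 59 others. Cst3 stood at 4032 against 13995 CPM. Genes of cDC1 identity outside the rule went both ways, with Irf8 at 1509 against 1020 CPM, Wdfy4 at 563 against 322 CPM and Cd24a at 214 against 423 CPM. Cst3, Clec9a and Naaa helped to set membership, so their levels are description only. Clec9a was at 619 against 292 CPM but was seen in 67.2% against 78.0% of cells. The rule asks for a UMI of Xcr1 or Clec9a at any depth, which raises their CPM in shallow cells. Naaa was at 619 against 652 CPM. With only cells at or under 5% in the numerator and denominator, the share of cDC1 was 0.0914% and 0.0793% in KO against 0.874% and 0.449% in Control. The log2 ratio was then -2.95.

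**Figure D2:**
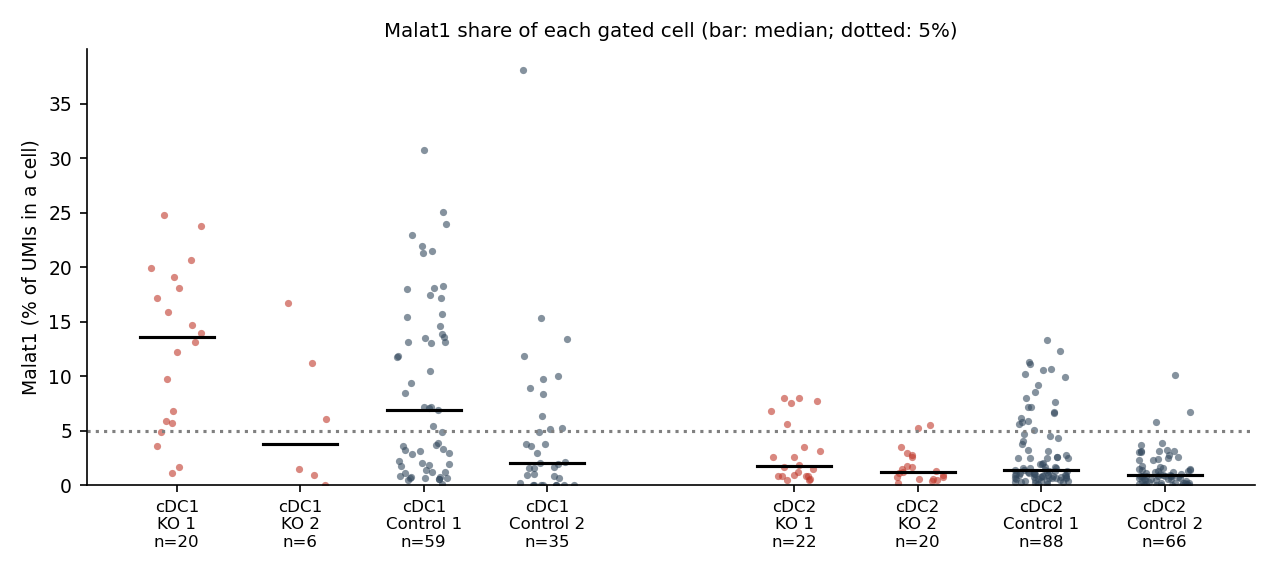
Malat1 as a percentage of the UMIs of each cDC1 (left) and cDC2 (right), 1 point per cell, by library; bars are medians and the dotted line marks 5%. The cDC1 medians run from 2.07% in Control 2 to 13.6% in KO 1.

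To ask what sets cDC1 apart from their nearest neighbour, counts were summed per library over cDC1 and over cDC2 (Cd209a-positive cells with Flt3, Cst3 or H2-Ab1). KO 1, Control 1 and Control 2 each had at least 10 cells of both kinds and were compared with the library as a block, leaving out the genes that define the gates. Of 1655 genes tested, 67 were higher in cDC1 (4.05%) and 87 lower (5.26%), 9.31% in all (edgeR quasi-likelihood test, Benjamini-Hochberg adjusted p below 0.05). Without Control 2 these counts were 12 and 19, without Control 1 they were 59 and 49, and without KO 1 they were 111 and 114.

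Of the 30 cDC1 genes, 12 passed the filter on low counts, 10 of those were higher in cDC1 and none lower, with a median log2 of 2.85 against -0.00 over all genes tested. Genes near 0 in cDC2, such as Tlr3 and Rab7b, passed that filter through cDC1, so the count is a description. Irf8 was at 930 CPM in KO 1, 1056 CPM in Control 1 and 1365 CPM in Control 2 in cDC1, against 111, 93.7 and 57.5 CPM in cDC2. Every cDC1 value lay far above every cDC2 value (log2 3.90 ± 0.30 SE, edgeR adjusted p = 1.02e-09). Ppt1 was at 904, 1209 and 595 CPM in cDC1 of KO 1, Control 1 and Control 2, against 73.9, 82.6 and 86.3 CPM in cDC2 (log2 3.45 ± 0.30, edgeR adjusted p = 7.12e-09).

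The remaining cDC1 genes that rose did so in all 3 libraries save Rab43. Cd24a, a surface glycoprotein used to sort cDC1, had 387, 361 and 321 CPM in cDC1 of KO 1, Control 1 and Control 2, against 12.3, 55.1 and 25.6 CPM in cDC2. Tlr3 had 207, 153 and 174 CPM in cDC1, and all cDC2 of the 4 libraries together held 4 UMIs of it. Both differences were large, with log2 values of 3.43 and 4.54. Rab7b, a small GTPase of late endosomes, had a log2 of 4.54, Ifi205 of 3.41, Wdfy4 of 2.30, Id2 of 1.94 and Havcr2, which codes for the receptor TIM-3, of 1.74. Rab43, a GTPase linked to cross-presentation in mice, was at 103, 236 and 275 CPM in cDC1, against 123, 110 and 76.7 CPM in cDC2 (log2 1.28). Ckb, a creatine kinase, and Btla, an inhibitory receptor, did not pass.

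Among the strongest genes from outside the list were Aif1, a calcium-binding protein of myeloid cells (log2 2.24 ± 0.30), and Fnbp1, which shapes membranes during endocytosis (log2 2.16 ± 0.33). Malat1 was itself higher, at 105396, 50935 and 34170 CPM in cDC1 of KO 1, Control 1 and Control 2, against 17767, 21772 and 10676 CPM in cDC2 (log2 1.94, edgeR adjusted p = 1.29e-04). Against migratory cells, in the fit over all 4 libraries given below, Malat1 did not pass (log2 -0.80 ± 0.46, edgeR adjusted p = 0.320). The part of Malat1 in the other differences was not tested. Without cells over 5% Malat1, 38 genes were higher and 62 lower.

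**Figure D3:**
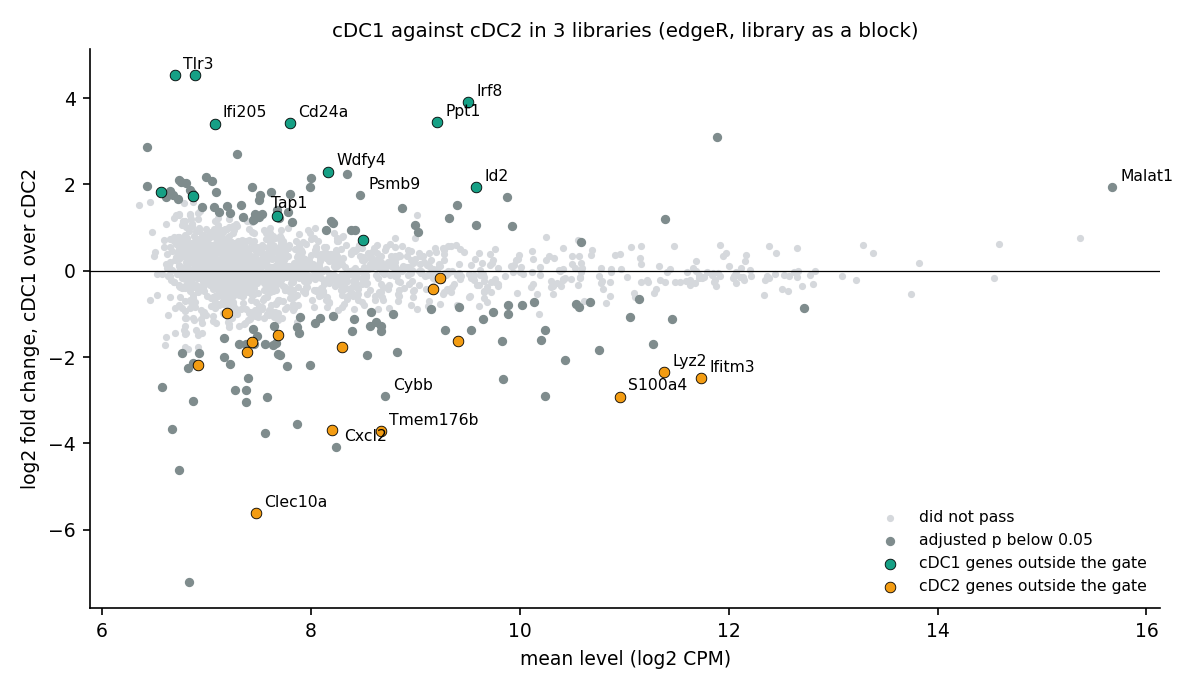
Log2 fold change of cDC1 over cDC2 (vertical) against mean level (horizontal, log2 CPM) for each gene tested in 3 libraries; dark points passed the adjusted p of 0.05, green points are cDC1 genes and orange points cDC2 genes that did not define the gates. The green points lie above 0 and the orange points below it.

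The other side of the contrast held cDC2 and monocyte genes. Of 24 cDC2 genes 15 were tested, 12 of those were lower in cDC1 and none higher, with a median log2 of -1.87. Over all genes tested 5.26% were lower. Genes near 0 in cDC1, such as Clec10a, passed the filter on low counts through cDC2, so this count is a description. S100a4, a calcium-binding protein, had 517, 250.1 and 330 CPM in cDC1 of KO 1, Control 1 and Control 2, against 3240, 2468 and 2714 CPM in cDC2 (log2 -2.91 ± 0.25, edgeR adjusted p = 5.52e-09). Ifitm3, an interferon-induced membrane protein, stood at 646, 959 and 724 CPM in cDC1, against 4879, 4572 and 4705 CPM in cDC2 (log2 -2.48). Lyz2, the lysozyme of myeloid cells, differed by a log2 of -2.34, and Sirpa, the classical surface marker of cDC2, by -2.17. The ion channel proteins Tmem176b and Tmem176a differed by -3.72 and -3.68. Clec10a, a lectin of cDC2, left 1 UMI in all cDC1, and Klf4, Ccr2 and Cfp did not pass.

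Beside this, monocyte markers (Chil3, F13a1, Ly6c2, Ace, Ear2, Adgre4) summed to 137 to 310 CPM in cDC1 and to 374 to 1044 CPM in cDC2 over the 4 libraries. Their part in the differences was not tested. Ly6c2 was lower in cDC1, with a log2 of -1.40, and so were Fcer1g and Tyrobp, adaptor chains of activating receptors, with -2.06 and -1.82.

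**Figure D4:**
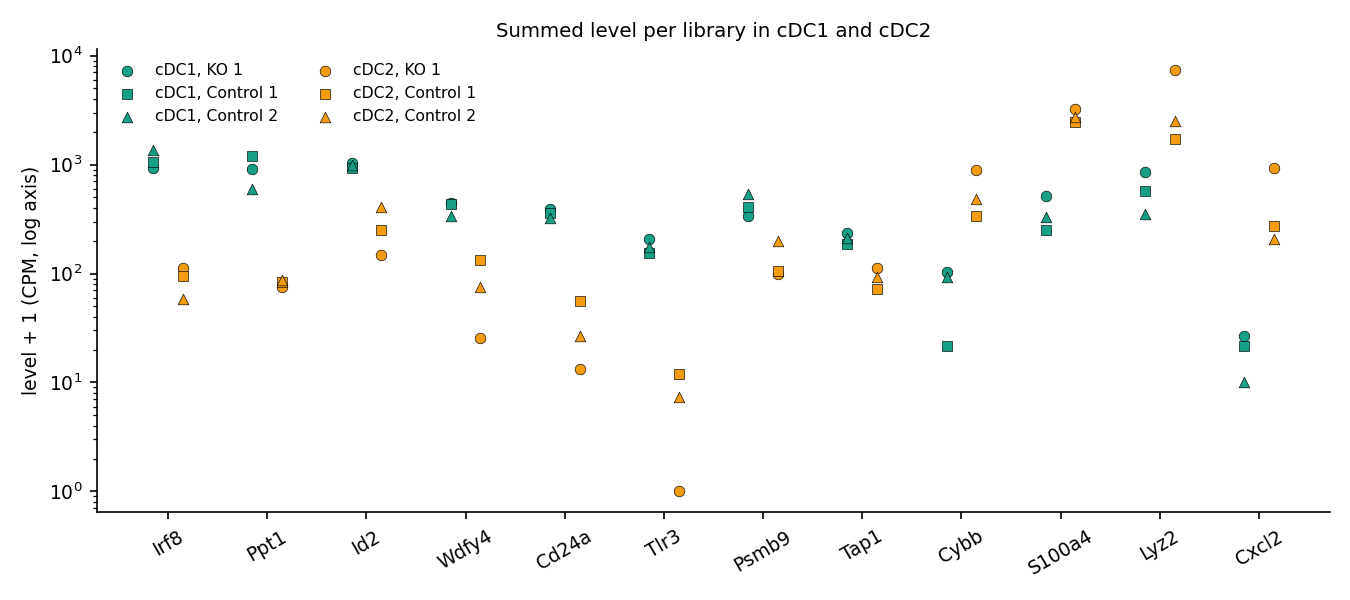
Summed level per library of 12 genes in cDC1 (green, left in each pair) and cDC2 (orange, right), as CPM + 1 on a log axis, with 1 symbol per library. The 3 cDC1 values and the 3 cDC2 values do not overlap in any gene drawn.

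Single genes of antigen presentation differed between cDC1 and cDC2. Of 23 genes of MHC class I and cross-presentation 18 were tested, 3 were higher, 1 was lower and the median log2 was 0.22. Psmb9, a subunit of the immunoproteasome, had 336, 410 and 540 CPM in cDC1 of KO 1, Control 1 and Control 2, against 98.6, 105 and 198 CPM in cDC2 (log2 1.76 ± 0.29, edgeR adjusted p = 9.20e-05). Tap1, which carries peptides into the endoplasmic reticulum, had a log2 of 1.31, and Psme1, a subunit of the proteasome activator PA28, of 1.03. Cybb, the catalytic subunit of the phagocyte NADPH oxidase, was lower, at 103, 20.8 and 91.6 CPM in cDC1, against 899, 336 and 483 CPM in cDC2 (log2 -2.90 ± 0.35). B2m, H2-K1 and H2-D1 did not pass.

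Of 13 MHC class II genes 10 were tested, none was higher and 2 were lower, with a median log2 of -0.39. The lower ones were the processing enzymes Ctss (log2 -0.79) and Ifi30 (log2 -1.61). Cd74, the invariant chain, was seen in 93.6% of Control members, and H2-Ab1, a chain of the class II molecule, likewise in 93.6%. The 13 genes summed in cDC1 to 14414 CPM in KO 1, 25093 CPM in KO 2, 27281 CPM in Control 1 and 29883 CPM in Control 2.

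Some chemokines were lower in cDC1 than in cDC2. Of 14 chemokines and receptors 7 were tested, 4 were lower and none higher, against 5.26% lower over all genes tested. Genes near 0 in cDC1, such as Cxcl2 and Ccl9, passed the filter on low counts through cDC2, so this count is a description. Cxcl2, which attracts neutrophils, had 25.8, 20.8 and 9.16 CPM in cDC1 of KO 1, Control 1 and Control 2, against 924, 269.9 and 205 CPM in cDC2 (log2 -4.09 ± 0.45, edgeR adjusted p = 3.22e-07). Ccl9, Ccl6 and Ccl3, ligands that draw monocytes and other leukocytes, were lower by log2 -3.75, -1.94 and -1.34. Ccl5 did not pass, at 1679, 320 and 266 CPM in cDC1 of KO 1, Control 1 and Control 2, against 111, 165 and 377 CPM in cDC2. Among 12 tested growth factor receptors and transcription factors, Zeb2, which opposes the cDC1 fate, was lower (edgeR adjusted p = 0.0391), as was Cebpb (log2 -1.88).

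Immediate early and stress genes, which dissociation can switch on, had 15 tested members, of which Atf3, Zfp36, Ier2 and Junb were lower in cDC1 and none higher. Of 12 tested respiratory chain genes encoded in mitochondria none passed, and none of 4 interferon response genes, 5 innate sensing genes and 2 genes of dead cell uptake did. Interleukin 12, the cytokine by which cDC1 drive interferon gamma, was not detected, since Il12b and Il12a had 0 UMIs among all members. Cd36, a scavenger receptor for apoptotic cells, was too low to be tested but had 89.2 CPM over all cDC1, against 1.46 CPM over all cDC2.

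Migratory dendritic cells (Fscn1 and Ccr7 positive) numbered 4 and 12 in KO and 16 and 7 in Control, and 1 library alone held 10 cells of both kinds. The analysis plan allowed no test in that case. The values below come from a fit outside the plan that kept all 4 small libraries. Of 488 genes tested, 28 were higher in cDC1 (5.74%) and 42 lower (8.61%; edgeR, library as a block). Without Control 2 these were 14 and 35. Of 24 genes of the migratory programme 8 were tested, 7 were lower in cDC1 and none higher. Genes near 0 in cDC1 passed the filter on low counts through the migratory cells alone, so this count is a description. Apol7c, Cacnb3 and Il4i1 had 0 UMIs in all 120 cDC1, and 615, 615 and 580 CPM in the migratory cells. Relb, a factor of the non-canonical NF-kB pathway, differed by a log2 of -5.51 and Fabp5, a fatty acid carrier, by -6.83. Ccl5 was lower by -4.07.

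On the cDC1 side, 5 of the 30 cDC1 genes were tested. Ppt1, Cd24a, Wdfy4 and Irf8 were higher, with log2 values of 4.89, 4.51, 5.18 and 2.29. Id2 did not pass (log2 0.06 ± 0.32, edgeR adjusted p = 0.946). The class II loading factors H2-DMa and H2-DMb1 were higher too (log2 2.84 and 4.50), while the class I genes B2m, H2-K1 and H2-D1 were lower (log2 -1.60, -1.46 and -1.28). Neutrophil and mesothelial transcripts were strong in the migratory gate, with S100a8 at 6665 CPM and Dcn at 615 CPM against 49.2 and 33.8 CPM in cDC1. Their part in these differences was not tested. Against pDC only levels are given. Irf8 stood at 1154 CPM in cDC1 against 2471 CPM in pDC, and the pDC factor Tcf4 stood at 117 CPM in cDC1 against 2060 CPM in pDC.

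Whether cDC1 differed in transcript levels between KO and Control could be tested only weakly. KO 2 had 6 members, under the minimum of 10, and the analysis plan allowed no test in that case. Levels per library therefore come first, and the fit over all 4 libraries, which is outside the plan, is given beside them. Of 1005 genes tested in that fit 0 were called in either direction (0% of those tested), against 48 with an unadjusted p below 0.05. DESeq2 likewise called 0, with 23 below that p. Without KO 2 there were 36 genes higher and 37 lower, without KO 1 there were 4 and 15, and without Control 2 there were 0 and 1.

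No gene of cDC1 identity passed between KO and Control, and single libraries differed for several. Irf8 stood at 930 CPM in KO 1 and 1145 CPM in KO 2, against 1056 CPM in Control 1 and 1365 CPM in Control 2, with overlapping groups (log2 -0.17 ± 0.34). Wdfy4 was at 439 CPM in KO 1 and 301 CPM in KO 2, and at 431 CPM in Control 1 and 339 CPM in Control 2. Tlr3 was at 207 CPM in KO 1 and 241 CPM in KO 2, and at 153 CPM in Control 1 and 174 CPM in Control 2, not overlapping but with Poisson intervals that did. Id2 was at 1033 CPM in KO 1 and 2109 CPM in KO 2, and at 931 CPM in Control 1 and 989 CPM in Control 2. Ppt1 had 904 CPM in KO 1 and 331 CPM in KO 2, and 1209 CPM in Control 1 and 595 CPM in Control 2. Both KO libraries stood above both Control libraries for Id2 and Tlr3, and the groups overlapped for Ppt1. Ckb had 51.7 CPM in KO 1 and 572 CPM in KO 2, and 472 CPM in Control 1 and 403 CPM in Control 2. It was seen in 2 of 20 cells of KO 1 and 2 of 6 of KO 2, against 28 of 59 of Control 1 and 17 of 35 of Control 2. With the libraries of a group pooled, Cadm1 was seen in 1 of 26 KO and 20 of 94 Control members, and Gcsam in 0 and 15. Other genes of the list went the other way, with Pianp in 7 of 26 KO and 6 of 94 Control members. Zbtb46 was seen in 7 of 26 and 15 of 94. None of these genes was tested. Pooled cells are not replicates, and 20 of the 26 KO cells came from KO 1. Of the 30 genes 10 were tested and 0 passed, with a median log2 of -0.30 against 0.02 over all genes tested. A p above the threshold does not show that the levels are alike.

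Levels moved in some abundant genes without passing. Actb was at 6561 CPM in KO 1 and 11417 CPM in KO 2, against 26183 CPM in Control 1 and 23159 CPM in Control 2 (log2 -1.44 ± 0.40, edgeR adjusted p = 0.844). The groups did not overlap, and in KO 2 a single cell gave 300 of the 379 Actb UMIs. Mitochondrially encoded mt-Nd1, a subunit of respiratory complex I, was at 1963 and 2018 CPM in KO 1 and KO 2, against 848 and 1127 CPM in Control 1 and Control 2 (log2 1.08 ± 0.33, edgeR adjusted p = 0.844). Both KO libraries stood above both Control libraries for it. Of all genes tested, 33.5% had the groups apart in this way, in either direction. The median mitochondrial share of a member's UMIs was 3.996% in KO 1 and 5.88% in KO 2, against 1.68% in Control 1 and 3.37% in Control 2. Over all kept cells it was 3.82% and 4.57% in KO, against 2.31% and 3.61% in Control.

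Stress genes were high in 1 KO library. Hspa1b, an inducible heat shock protein, was at 3281 CPM in KO 1 and 843 CPM in KO 2, whereas Control 1 had 834 CPM and Control 2 had 907 CPM (log2 1.40 ± 0.57, edgeR adjusted p = 0.951). The whole list of 16 summed to 22965 CPM in KO 1 and 9097 CPM in KO 2, against 11462 CPM in Control 1 and 12276 CPM in Control 2. KO 1 stood alone at the top and KO 2 at the bottom. KO 1 was also the library with the highest Malat1 in cDC1, and the part of that in its levels was not tested.

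Ccl4, a chemokine for T cells and NK cells, came closest to the threshold. It had 1 UMI in KO 1 and 0 in KO 2, against 174 in Control 1 and 62 in Control 2. These came from 1 of 20 and 0 of 6 cells in KO, against 10 of 59 and 8 of 35 cells in Control. The fit gave a log2 of -5.81 ± 0.91 with an edgeR adjusted p of 0.0802. With no filter on low counts the edgeR adjusted p was 1.42e-10, the lowest among the alternatives tried. In that fit the median log2 over all genes was -0.65, in the same direction. DESeq2 and the gate of 2 UMIs of Xcr1 or Clec9a called no gene. Ccl4 was tested in 11 alternatives, but not in the fit of cells free of other types' markers. Fits that left 1 library in a group are among the 11, and their p-values are not given. Of the Control UMIs, 156 of 174 in Control 1 and 51 of 62 in Control 2 lay in the 19 and 10 members with 2 or more UMIs of other types' markers. In the members without them Ccl4 was at 36.3 CPM in KO 1 and 0 CPM in KO 2, against 244 CPM in Control 1 and 180 CPM in Control 2. In cDC2 of the same libraries it was at 850 CPM in KO 1 and 531 CPM in KO 2, against 1223 CPM in Control 1 and 1362 CPM in Control 2. Lower levels in both KO libraries were therefore not confined to cDC1. In pDC of the same libraries it reached 10051 CPM in KO 1 and 2811 CPM in KO 2, against 4582 CPM in Control 1 and 4749 CPM in Control 2.

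**Figure D5:**
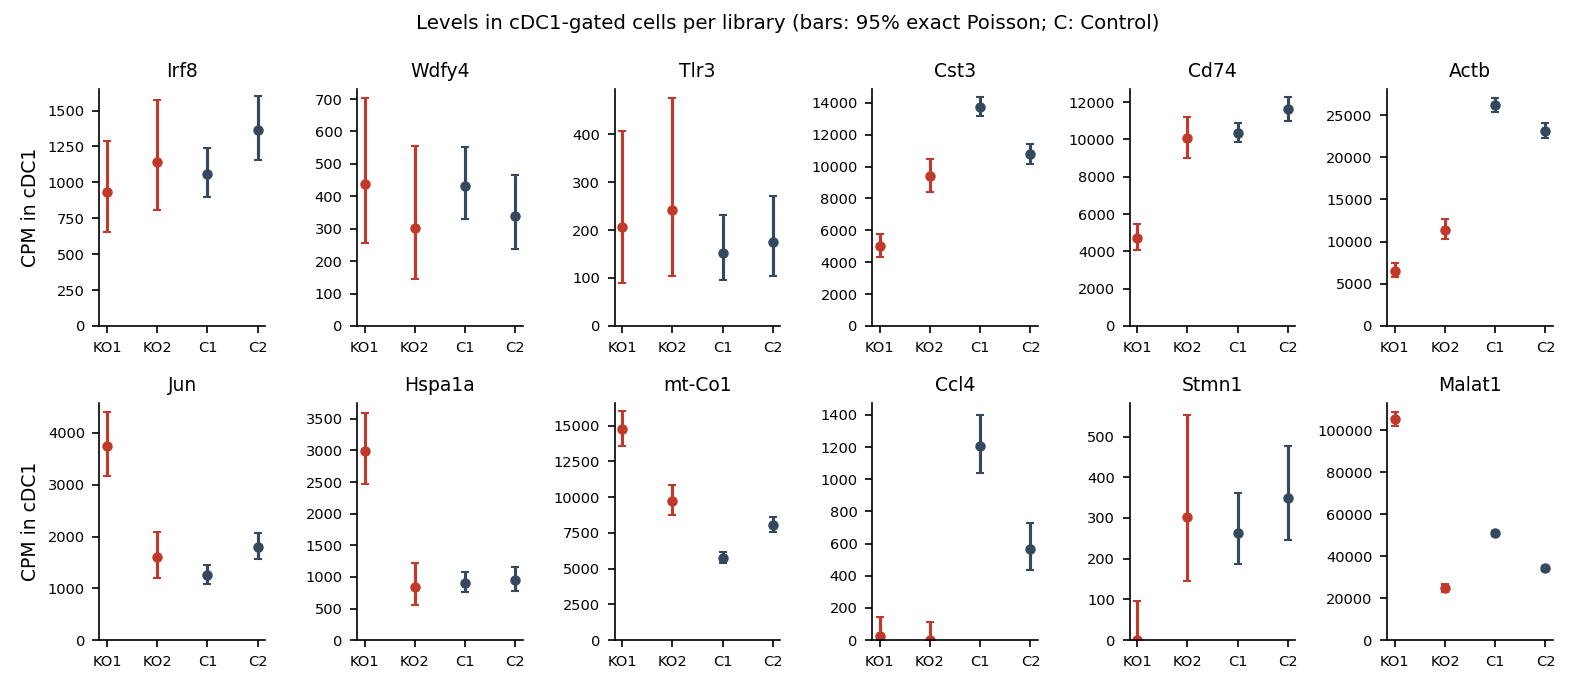
Level (CPM) of 12 genes in the cDC1 of each library, KO (red) left of Control (dark), with exact Poisson 95% intervals that cover counting error. Irf8 and Wdfy4 overlap between groups, whereas Actb is at 6561 CPM in KO 1 and 11417 CPM in KO 2, against 26183 CPM in Control 1 and 23159 CPM in Control 2.

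Ccl5, a further T cell attractant, came almost wholly from 1 cell in KO 1 and from many cells in Control. KO 1 had 65 UMIs of it, 92.3% of them in 1 cell, and KO 2 had 0, against 46 UMIs over 16 cells in Control 1 and 29 over 13 cells in Control 2. Cxcl9, a ligand that draws CXCR3-positive T cells, was seen in 2 cells of Control 1 and in no other member.

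A minority of members carried cell cycle transcripts. At least 10 UMIs over 12 cell cycle genes were found in 0 of 20 cells of KO 1 and 3 of 6 of KO 2, against 9 of 59 of Control 1 and 3 of 35 of Control 2. The KO libraries lay on both sides of the Control libraries. The count of 0 in KO 1 covers cells with such UMIs and not cells in cycle. Stmn1, a microtubule regulator, was found in 0 and 3 members of KO 1 and KO 2, against 11 and 5 of Control 1 and Control 2. In Control 2 a single cell gave 228 of 294 UMIs of the list, and in KO 2 another gave 98 of 134. Hmgb2, a chromatin protein raised in dividing cells, was the list's only gene tested against cDC2 and was higher in cDC1 (log2 1.71), though not in KO 1, where it had 336 CPM in cDC1 against 493 CPM in cDC2.

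The ligands that act on cDC1 were measured in other cells of the same libraries. Xcl1, the ligand of XCR1, was at 1153 and 1403 CPM in NK cells (Ncr1-positive) of KO 1 and KO 2, against 2203 and 2112 CPM in those of Control 1 and Control 2. The groups did not overlap, and no test across genes was run in these cells. In CD8 T cells of KO 1 and KO 2 Xcl1 reached 166 and 148 CPM, against 322 and 241 CPM in those of Control 1 and Control 2. In T cells (Cd3e-positive) without a Cd8a UMI the groups overlapped. There it was at 240 and 244 CPM in KO 1 and KO 2, against 270 and 233 CPM in Control 1 and Control 2. Over all kept cells the order was looser, with 203 CPM in KO 1 and 232 CPM in KO 2, and 279.8 CPM in Control 1 and 228 CPM in Control 2. Flt3l, the growth factor for Flt3-positive precursors, was at 31.8 and 33.4 CPM over all kept cells of KO 1 and KO 2, against 27.1 and 28.7 CPM over those of Control 1 and Control 2.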

How the data were processed

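For each of 4 libraries, the authors' deposited matrix gives whole UMI counts by gene and cell barcode. The submitters' processing notes name Cell Ranger 3.1.0 and the build mm10. The lowest total per barcode was 500 UMIs. Members and gene lists were chosen with earlier results of these data known. Genes named are list members (up to 6 a list by level, and those that passed) and, per comparison, the 10 higher and 10 lower genes of smallest p on 1 side in every library. Levels (CPM) are summed counts scaled to 1000000. Comparisons used edgeR 4.0.16 (TMM, filterByExpr, glmQLFit, glmQLFTest, Benjamini-Hochberg over all genes tested, R 4.3.3) on counts summed per library and gate. DESeq2 1.42.0 was an alternative. Libraries needed 10 cells per gate. KO 2 missed this for KO against Control, and all but Control 1 missed it for migratory cells. The analysis plan then called for values without a test. The fits over all 4 libraries reported for these comparisons therefore depart from the plan. Genes of the gates were left out of testing. cDC2 had Cd209a and Flt3, Cst3 or H2-Ab1, and migratory cells had Fscn1 and Ccr7. pDC had 2 or more UMIs of Siglech. No doublet caller was run; leaving out cells with 2 or more UMIs of other types' markers stood in for it. Cutting cells over 5% Malat1 or under 5 MHC class II UMIs was added after seeing the data. The tests were checked on simulated counts. Promoter windows came from RefSeq and coordinates from GENCODE M21. The replicate libraries of a group were not duplicates (chi-squared per degree of freedom 35.0 between KO and 51.7 between Control libraries).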

Additional observations from a re-analysis of the deposited data

How the results depend on the processing

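The lower cDC1 share in KO kept its direction under every gate, depth and denominator tried and without each library, with log2 ratios from -1.31 to -2.95; the design allows no p below 0.333. Among gated dendritic cells the ratio turned to 0.28 with 2 UMIs of Xcr1 or Clec9a required and, over the fits without 1 library, ran from -1.12 (without KO 1) to 0.34 (without KO 2). For cDC1 against cDC2, DESeq2 called 28 higher and 37 lower, the Control libraries alone 111 higher, 2 UMIs of Xcr1 or Clec9a 36 and 55, cells free of other types' markers 43 and 45, and cells at or under 5% Malat1 38 higher. Leaving out 1 library gave 12 to 111 higher and 19 to 114 lower. None of 46 named genes changed direction, and 24 lost their call in at least 1 setting. For KO against Control, no filter gave 4 lower, and leaving out 1 library gave 0 to 36 higher and 0 to 37 lower. Hspa1b ran from a log2 of -0.28 without KO 1 to 1.96 without KO 2, and Irf8 turned to 0.050 in cells free of other types' markers. With the replicate number as a block, 1 gene was higher and 2 were lower; the numbers carry no stated pairing. For cDC1 against migratory cells, the Control libraries alone gave 49 higher and 84 lower, no filter 99 and 129, and cells free of other types' markers 15 higher. Leaving out 1 library gave 14 to 36 higher and 35 to 52 lower. Dropping the filter moved the median log2 of all genes to -0.65 for KO against Control, 0.48 against migratory cells and -0.14 against cDC2. The cause of these shifts was not tested. Few cells per library, and 1 large cell in KO 2 and in Control 2, limit all levels.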
